A study of Mus musculus with 2 samples.

Results

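The Rab GTPases are the largest family of small GTPases that direct vesicle traffic. Their members were taken as all genes whose symbol in the platform annotation is Rab followed by a number and an optional letter, which leaves out effectors and interacting proteins. This gave 59 genes read by 112 of the 45281 probes, out of 19057 genes measured, and 26 of them rest on 1 probe. Messenger RNA was measured on Illumina bead arrays in 2 samples of bone marrow cells from C57BL/6J mice aged 8 to 12 weeks, with no genetic change named for either. Macrophages were grown in M-CSF, the macrophage growth factor, at 25 ng/ml, and the first culture lasted 4 days. Osteoclasts, the multinucleated cells that resorb bone, were made from such macrophages in 3 more days with M-CSF at 25 ng/ml and soluble RANKL, the cytokine that drives osteoclast formation, at 30 ng/ml. Each sample stood for 3 mice and was read on 1 array, and the labels do not give the length of the macrophage culture beyond the first stage.

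A Rab protein works as a switch on the membrane of a vesicle or organelle. Exchange factors load it with GTP, which lets it recruit effectors such as motors, tethers and kinases, and GTPase-activating proteins turn it off. A lipid anchor added by Rab geranylgeranyl transferase holds it on the membrane, and GDI proteins carry it back. Osteoclasts depend on this traffic: they move late endosomes and lysosomes to the plasma membrane facing bone, where the vesicles fuse into a ruffled border and release acid and cathepsin K. Aminobisphosphonate drugs act on osteoclasts by blocking the supply of the lipid that anchors Rabs and other small GTPases.

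The 2 arrays carry different chip numbers in the sample descriptions, so chip and cell type cannot be told apart, and with 1 array per cell type no test was possible and no p-value is given. A gene is given by the probe with the highest mean signal. Intensities are the deposited values, on a linear scale with a background already subtracted. The osteoclast array was brighter as a whole, with a median intensity of 7.84 against 3.90, so the difference after normalization (osteoclasts minus macrophages, log2) is lower than the raw intensities alone would give. A probe counts as detected above an intensity of 4.4 on the macrophage array or 7.25 on the osteoclast array, and a gene is called where the arrays differ 2-fold or more and either of them detects it. Markers were as the labels say: of 9 osteoclast genes, 8 were at least 2-fold higher in osteoclasts, led by Ctsk (cathepsin K) with intensities of 55.4 and 50206 (424-fold), and with Acp5 (tartrate-resistant acid phosphatase) 30.7-fold higher. All 8 macrophage markers were at least 2-fold lower there, among them Adgre1 (F4/80) with 9108 and 5883 (2.41-fold).

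Of the 59 Rab genes, 51 were detected, 46 on both arrays, 2 on the osteoclast array alone and 3 on the macrophage array alone. The 86.4% detected compares with 68.8% of all genes. Rab38, Rab25 and Rab34 were at least 2-fold higher in osteoclasts, and Rab43, Rab27a, Rab5b, Rab8b, Rab9 and Rab6b at least 2-fold lower. The other 42 differed by less. These 9 calls are 17.6% of the detected Rabs, near the background of 19.6% among all 13103 detected genes. The 3 higher Rabs are 5.88% against a background of 11.5%, and the 6 lower ones 11.8% against 8.15%. With genes detected on 1 array set at their bounds the counts were again 3 and 6, against backgrounds of 10.5% and 7.7%. The split depended on the scaling: it was 10 higher and 1 lower without normalization, and 6 and 3 under median scaling. Without normalization these were 19.6% and 1.96% of detected Rabs, against 29.1% and 2.87% of all genes. Under median scaling they were 11.8% and 5.88%, against 19.2% and 4.47%. Over all genes, 58.5% of the calls were higher in osteoclasts, 91.0% without normalization and 81.1% under median scaling.

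The detected Rabs as a family sat below the detected genes as a whole. Their median difference was -0.38 against -0.05 for all genes, and 37 of 51 were below 0 where 52.9% of all detected genes were. Without normalization both medians were above 0, at 0.37 for Rabs and 0.58 for all genes, and 16 Rabs were below 0. Median scaling likewise gave 0.08 and 0.29. The Rab median lay below that of all genes in the reported setting and in each of the 13 alternatives that give a median, by between 0.21 and 0.33 log2 units. Among genes detected on both arrays the medians were -0.38 for 46 Rabs and -0.08 for 10579 genes. A low median was not particular to Rabs in the reported setting. SNARE, Arf and Arl, and Rab-like genes, described at the end, had medians of -0.25, -0.35 and -0.46. The 5 lists of Rab regulators and effectors also lay below all genes in that setting. Without normalization and under median scaling both effector lists lay slightly above them. These are descriptions of 2 arrays.

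**Figure D1:**
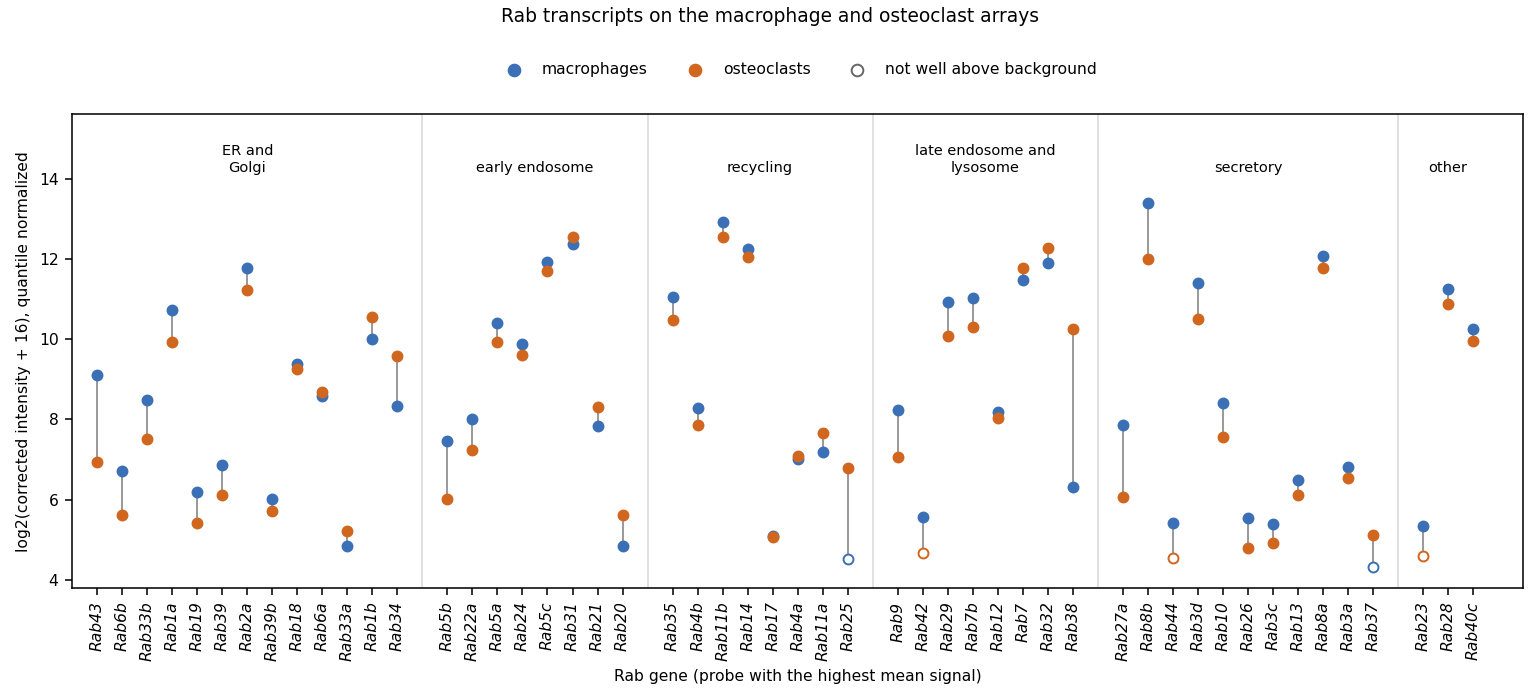
Normalized level of each of the 51 detected Rab genes on the macrophage array (blue) and the osteoclast array (orange), in log2 units, by role; open circles mark a value not well above background. Levels compare within a gene only. The long lines of Rab38 and Rab25 run upward to osteoclasts, and that of Rab43 runs downward.

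**Figure D2:**
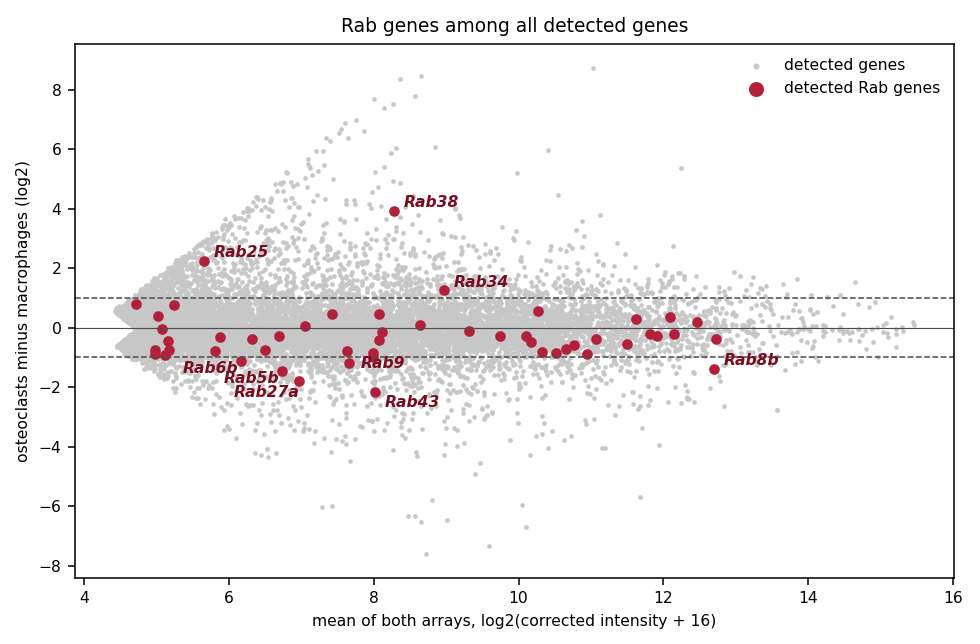
Difference between osteoclasts and macrophages (log2) against the mean level of both arrays, for all 13103 detected genes (grey) and the 51 detected Rab genes (red). Dashed lines mark 2-fold. The 9 named Rabs lie outside them, from -2.16 for Rab43 to 3.93 for Rab38; without normalization both medians turn above 0.

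Windows before the start were matched for 8 of the 9 called genes, all but Rab38. For 3 of them the RefSeq sequence (build GRCm38.p6) of the 250 bases before the start is shown, 5′ to 3′ on the gene's strand. Capitals mark the motifs searched for on both strands: the E-box CANNTG, bound by MiT/TFE and other basic helix-loop-helix factors, its forms CACGTG and CATGTG, the NFAT core GGAAA and the AP-1 site TGANTCA. Rab25 is shown because it was not well above background in macrophages, Rab34 for the AP-1 site in its window, and Rab8b because both of its probes were lower.
Rab25, chr3:88548280-88548529, minus strand: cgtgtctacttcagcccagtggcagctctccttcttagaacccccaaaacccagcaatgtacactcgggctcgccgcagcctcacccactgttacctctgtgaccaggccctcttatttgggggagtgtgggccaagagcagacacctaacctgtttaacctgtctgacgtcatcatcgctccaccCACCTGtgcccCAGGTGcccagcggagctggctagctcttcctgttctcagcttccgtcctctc
Rab34, chr11:78188177-78188426, plus strand: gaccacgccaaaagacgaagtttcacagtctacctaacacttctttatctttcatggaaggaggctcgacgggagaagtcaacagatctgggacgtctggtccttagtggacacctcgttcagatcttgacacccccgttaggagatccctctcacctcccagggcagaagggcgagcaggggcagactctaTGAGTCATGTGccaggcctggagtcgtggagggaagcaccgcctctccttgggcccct
Rab8b, chr9:66919706-66919955, minus strand: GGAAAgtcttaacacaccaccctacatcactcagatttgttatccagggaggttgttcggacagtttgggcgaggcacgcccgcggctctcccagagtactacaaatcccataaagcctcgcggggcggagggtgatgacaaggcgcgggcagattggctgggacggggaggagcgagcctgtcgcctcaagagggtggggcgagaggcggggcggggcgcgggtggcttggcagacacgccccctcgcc

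The Rab25 window holds 2 E-boxes, 64 and 53 bases before the start. In the Rab34 window an AP-1 site 58 bases before the start overlaps an E-box of the form CATGTG at 53 bases. Rab34 has another listed start with its own window, which holds an E-box at 120 bases and the NFAT core at 166 bases. The Rab8b window holds the NFAT core at its far end, 250 bases before the start. Of 60 windows of 48 matched Rab genes, 63.3% hold an E-box against 66.2% of all 32851 windows, 8.33% hold CACGTG against 6.02%, and 10% hold CATGTG against 12.3%. The NFAT core is in 63.3% against 55.6%, and the AP-1 site in 3.33% against 6.75%. E-boxes include both named forms. A match is a run of letters and was not tied to the values.

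Late endosome and lysosome Rabs held the largest difference of the family. Rab38 (Entrez Gene 72433, chromosome 7), a Rab of lysosome-related organelles such as melanosomes, had an intensity of 40.4 in macrophages and 1568 in osteoclasts. Its other probe had 18.5 and 602. Both probes were thus detected on both arrays and brighter on the osteoclast array. The upper quartile of the macrophage array was 39.6, so the chosen probe was not dim there. After normalization Rab38 was 15.2-fold higher (3.93 log2 units, 3.34 at the other probe), and between 3.44 and 4.72 under every alternative run. Of the melanocyte markers, Tyr was detected on neither array, Pmel had intensities of 20.8 and 21.3, and Mlana reached 7.66 in osteoclasts, just above the detection limit. Epidermal keratins on the same list were higher in osteoclasts, as given with Rab25. The part of either set of markers in the Rab38 value was not tested.

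Its closest relative Rab32, which shares the melanosome and lysosome-related role, differed by 0.37, with intensities of 3032 and 6204. The gap between the relatives was therefore one of difference and not of detection, since both were detected on both arrays. Rab7, the Rab of late endosomes that directs their fusion with lysosomes and their transport to the ruffled border, had intensities of 2193 and 4491 and differed by 0.30. Its 4 probes ranged from 0.23 to 0.54, all above 0 and all within 2-fold, and without normalization the chosen probe stood at 1.03. Rab7b, a relative that acts between endosomes and the Golgi, differed by -0.72 (0.05 without normalization).

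Rab9, which returns mannose 6-phosphate receptors from late endosomes to the Golgi, was 2.26-fold lower in osteoclasts at its chosen probe, with intensities of 203 and 161 (-1.17; -0.28 without normalization and -0.58 under median scaling, both within 2-fold). Its other probe detected on both arrays had 141 and 186 and differed by -0.50, so the call rests on 1 probe and on the scaling. Rab29, a Rab linked to the kinase Lrrk2, differed by -0.85, with nearly equal intensities of 1477 and 1406. Rab12 differed by -0.13. Rab42 was detected on the macrophage array only at its chosen probe and was at least 1.83-fold lower, while a dimmer probe detected on both arrays differed by -0.02 and the last was detected in osteoclasts only. Rab9b was detected on neither array. Over the 8 detected members of this group the median was -0.43 (0.40 without normalization), with 1 higher, 1 lower and 6 within 2-fold. That is 25% called, near the 19.6% of all detected genes.

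Secretory Rabs mostly lay below 0, at 10 of 11 detected members. For comparison, 37 of all 51 detected Rabs and 52.9% of all detected genes lay below 0. Rab37, the exception among the secretory Rabs, was detected in osteoclasts only and at least 1.28-fold higher. The group median was -0.76 (-0.02 without normalization, when 6 of 11 were below 0, and -0.32 under median scaling). Rab27a (Entrez Gene 11891, chromosome 9), which docks secretory granules and lysosome-related organelles at the plasma membrane, had an intensity of 153 in macrophages and 65.9 in osteoclasts. It was 3.47-fold lower at its single probe (-1.79; -0.99 without normalization). Its paralog Rab27b was detected at none of its 3 probes.

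Rab8b (Entrez Gene 235442, chromosome 9), a Rab of transport to the plasma membrane and of phagosomes, had 8604 and 5178 at 1 probe and 6398 and 3894 at the other. Unlike most genes on this brighter array, its raw intensity was lower in osteoclasts at both probes. It was 2.60-fold lower after normalization (-1.38 and -1.41), and by 0.73 log2 units without it. Rab8a, its paralog, had 3344 and 4470 and differed by -0.29, so the paralogs differed from each other by more than 1 log2 unit at their chosen probes.

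Rab3d, which osteoclasts are known to use for vesicle traffic to the ruffled border, had intensities of 2046 and 1897 and differed by -0.87 (-0.11 without normalization). It stayed within 2-fold in all 13 alternatives. Rab13, a Rab of tight junctions and trans-Golgi traffic described in human osteoclasts, had 47.5 and 69.5 and differed by -0.37, or by -0.74 at its other probe. Rab44, a large Rab that restrains mouse osteoclast formation, was detected in macrophages only, with 16.2 against 3.19, and was at least 1.65-fold lower. Rab10 differed by -0.86 at its chosen probe, whose raw intensities were 232 on both arrays, while its other 2 probes gave -0.20 and 0.10. Rab26 differed by -0.76, Rab3c by -0.46 and Rab3a by -0.27, and Rab3b was not detected.

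Neutrophils and platelets are rich in secretory Rabs, Rab27a among them, and their markers moved the same way. All 10 granulocyte markers were at least 2-fold lower in osteoclasts, their summed intensity going from 49104 to 889, with Mpo and Retnlg not detected there. Of 4 detected platelet markers 3 were lower, with a sum of 1724 in macrophages and 694 in osteoclasts, and only Pf4 was still detected. Their part in the Rab values was not tested. In such bulk samples fewer cells of a type and less RNA per cell cannot be told apart.

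Rabs of the recycling endosome had Rab25 as the single call among 8 detected members, 12.5% against 19.6% of all detected genes. Rab25 (Entrez Gene 53868, chromosome 3), an epithelial member of the Rab11 subfamily, was not well above background in macrophages, at an intensity of 1.19, and had 128 in osteoclasts. Its other probe had -3.69 and 53.1. It was at least 4.08-fold higher, and at least 2.17-fold at the other probe. Epidermal markers were higher on the same array: Krt5, Krt10, Krt14 and Lor were at least 2-fold higher, Krt5, Krt14 and Lor being undetected in macrophages, and the sum of the 7 epidermal and melanocyte markers went from 127 to 17827. Their part in the Rab25 value was not tested.

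Rab11a, which recycles receptors to the cell surface and in mouse osteoclasts sends the M-CSF receptor and RANK to lysosomes, had intensities of 87.2 and 252 and differed by 0.48. That difference was 1.35 without normalization and 1.06 under median scaling, past 2-fold in those settings alone of the 13 alternatives. Rab11b, its paralog, had 6102 and 7469 at its chosen probe and differed by -0.38, turning to 0.29 without normalization. A second Rab11b probe was detected in macrophages only, with 54.3 against 4.93, and was at least 3.85-fold lower. The probes of Rab11b thus disagree, and the transcript form each reads is not known here. Rab35 differed by -0.57, Rab4b by -0.41, Rab14 by -0.21, Rab17 by -0.04 and Rab4a by 0.06, while Rab15 was not detected.

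Among Rabs of the early endosome, Rab5b (Entrez Gene 19344, chromosome 10) was the only one called. Its intensity was 111 in macrophages and 61.2 in osteoclasts at its single probe, 2.74-fold lower (-1.46; -0.67 without normalization). The other forms of Rab5, which tether and fuse early endosomes, stood closer together: Rab5a differed by -0.47, with probes from -0.47 to 0.10, and Rab5c by -0.22 with intensities of 3070.5 and 4221. Rab20, a Rab of phagosome maturation, had 5.82 and 38.9 and differed by 0.77, Rab21 by 0.47 and Rab31 by 0.18. Rab22a differed by -0.79 and Rab24, an autophagy-linked Rab, by -0.27. Other Rab22a probes differed by -0.23 and by 0.11, the latter detected in osteoclasts only. The median of all 8 members was -0.25 (0.49 without normalization). The 1 call is 12.5% of them, against 19.6% of all detected genes.

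Rabs of the endoplasmic reticulum and Golgi held calls in both directions. Rab43 (Entrez Gene 69834, chromosome 6), a Rab of Golgi structure and retrograde traffic, had intensities of 389 and 145 at its chosen probe and 243 and 75 at another. Both were detected on both arrays and dimmer on the osteoclast array, and Rab43 was 4.46-fold lower (-2.16 and -2.28). A dimmer probe with 18.5 and 22.4 differed by -0.30, and the last was detected on neither array. Rab43 alone among the lower Rabs was still at least 2-fold lower without normalization (-1.29). Rab6b, known mainly from neurons, was 2.17-fold lower at its single probe, with 58.6 and 37.9 (-0.41 without normalization). Its paralog Rab6a, which drives traffic from the Golgi back to the endoplasmic reticulum, differed by 0.09, with 4 probes from -0.44 to 0.24.

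Rab34 (Entrez Gene 19376, chromosome 11), which acts in lysosome positioning, macropinocytosis and cilium formation, had intensities of 218 and 1004, 247 and 783, and 55.3 and 184 at its 3 probes. All 3 were higher in osteoclasts, by 1.25, 0.73 and 0.58 log2 units, so only the chosen probe reached 2-fold (2.39-fold) and the mean over probes was 0.86. Without normalization all 3 passed 2-fold. Rab1b, which carries cargo from the endoplasmic reticulum to the Golgi, had 755 and 1939 and differed by 0.56, with its 3 probes from -0.42 to 0.56. Its paralog Rab1a had 1279 and 1263 and differed by -0.80 (-0.40 at its other probe). Rab33b, an autophagy-linked Golgi Rab, fell just short of the rule at -0.98. Rab2a differed by -0.54, Rab39 by -0.73, Rab19 by -0.79, Rab39b by -0.31, Rab18 by -0.12 and Rab33a by 0.38, and Rab2b, Rab30 and Rab36 were not detected. The median of 13 detected members was -0.54 (0.18 without normalization). The 3 calls are 23.1% of them, near the 19.6% of all detected genes.

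The 4 remaining Rabs, 3 of them detected, held no call, against 19.6% of all detected genes. Rab28 differed by -0.38 and Rab40c by -0.30, Rab23 was at least 1.57-fold lower at its chosen probe, and Rab40b was not detected. Another Rab23 probe was detected in osteoclasts only, with 16.4 against 2.87, and was at least 1.21-fold higher. Across the family, 21 genes had more than 1 probe detected on both arrays. In 17 of them the probes lay on the same side of 0, and in 1, Rab43, they differed by more than 1 log2 unit.

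**Figure D3:**
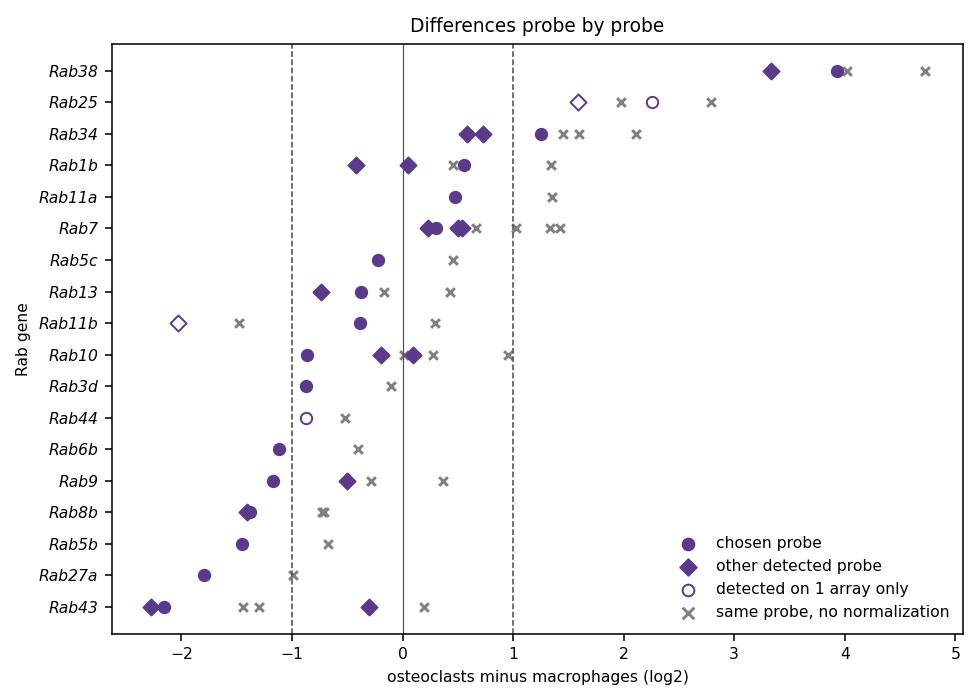
Difference (log2) of each detected probe of the 9 called Rabs, of the other Rabs described in osteoclasts, and of Rab10 and Rab1b, whose probes disagree. Filled symbols are detected on both arrays, open ones on 1, and grey crosses give the same probe without normalization; both probes of Rab38 stand above 3 and both of Rab8b below -1, which the latter do not reach without normalization.

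Genes that load, anchor, switch off or read Rabs were examined next as 5 lists. Their medians ran from -0.35 to -0.14, all 5 below the -0.05 of all genes. Without normalization all 5 were above 0, and both effector lists, at 0.59 and 0.60, lay slightly above the 0.58 of all genes. Under median scaling these lists stood at 0.30 and 0.31, against 0.29 for all genes. Of the prenylation and recycling factors 9 were detected, 0 higher and 1 lower, against 11.5% and 8.15% of all genes. The lower one, Pggt1b, a subunit of geranylgeranyl transferase I, was 2.04-fold lower (-0.17 without normalization). The subunits of Rab geranylgeranyl transferase went apart, Rabggta at -0.62 and Rabggtb at 0.63. Gdi2, which extracts Rabs from membranes, differed by -0.69, Rabac1, a Rab-binding membrane protein, by -0.47, and Fdps, the enzyme that aminobisphosphonates inhibit, by -0.20.

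Of 33 detected exchange factors 2 were at least 2-fold higher and 5 lower, 21.2% called against 19.6% of all genes, which is near the background. Rin1, an exchange factor of Rab5, was not well above background in macrophages and had an intensity of 122 in osteoclasts, at least 3.93-fold higher. Dennd2a, a DENN-domain exchange factor, had 38.2 and 495 and was 5.02-fold higher. Rab3il1, an exchange factor of Rab8 proteins, had 434 and 162 and was 4.51-fold lower, with its other detected probe at -1.99. The other lower genes were Sbf2 (3.32-fold), Dennd1a, which acts on Rab35 (3.20-fold), Dennd1c (2.85-fold) and Rin3 (2.38-fold). The second probe of Dennd1c differed by 0.53, and of these 5 genes Rab3il1 and Sbf2 stayed past 2-fold without normalization, at -1.31 and -1.03.

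GTPase-activating proteins had calls in 9 of 28 detected genes, 32.1% against the 19.6% background, with 3 higher and 6 lower. With the mean over all probes of a gene the calls were 1 higher and 2 lower, against 1129 and 786 of all 13103 genes. The share called was smaller there and lay below that of all genes, so the excess over the background depended on the probe rule. Without normalization the calls were 8 higher and 2 lower, so the direction turned. These were 28.6% and 7.14% of the detected members, against 29.1% and 2.87% of all genes. Tbc1d2, which switches off Rab7, had intensities of 118 and 756 and was 3.15-fold higher, with 1.43 at its other probe detected on both arrays and as little as -0.18 among its probes detected on 1 array. Sgsm3 (2.60-fold) and Usp6nl, an activator of Rab5 hydrolysis (2.52-fold), were the other higher genes. Tbc1d10c was 4.21-fold lower at its chosen probe but differed by -0.30 at its other detected probe. Tbc1d8 was 3.17-fold lower, Rabgap1l 3.00-fold, Tbc1d9 2.64-fold, Tbc1d9b 2.38-fold and Tbc1d17 2.14-fold, while other probes of Tbc1d9, Tbc1d9b and Rabgap1l reached -0.70, 0.01 and -0.56. Granulocyte markers, as above, were lower too, and their part in these values was not tested.

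Effectors of endosomes and lysosomes were called in 3 of 26 detected genes, 11.5% against 19.6% of all genes, with 2 higher and 1 lower. Rilpl1, a partner of Lrrk2-phosphorylated Rabs, had intensities of 73.1 and 712 and was 4.33-fold higher, with 0.68 at its other probe. Snx10, a sorting nexin that osteoclasts need to resorb bone, had 1708 and 9595 and was 3.40-fold higher, although its other probe differed by -0.80. Rab11fip5, a Rab11 partner, was the lower one, 2.34-fold, and its other detected probe differed by -1.49. Next in size came Rabep2, a Rab5 effector, at -0.94 and Vps11, of the tethering complexes of endosomes, at -0.83, its other detected probe being at 0.15. Plekhm1 and Lrrk1, chosen after their values were seen because their loss causes osteopetrosis and both act with Rab7, differed by 0.41 and -0.47, with other probes at -0.12 for Plekhm1 and up to 0.38 for Lrrk1.

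Of 26 detected effectors of secretion and the Golgi, 1 was higher and 2 were lower, 11.5% called against 19.6% of all genes. Micall1, a Rab8 and Rab35 partner on recycling tubules, had 123 and 708 and was 2.83-fold higher, with 0.81 at a probe detected on 1 array. Myo5a, the motor that Rab27a recruits to melanosomes, was 2.37-fold lower, with 4 detected probes from -1.25 to -0.34, and Exoc6, a subunit of the exocyst, was 2.22-fold lower. Sytl5, a Rab27 effector, was detected in osteoclasts only and at least 1.37-fold higher, and Micall2 differed by 0.83. Mlph, which links Rab27a to Myo5a, differed by -0.43; it was chosen after its values were seen.

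**Figure D4:**
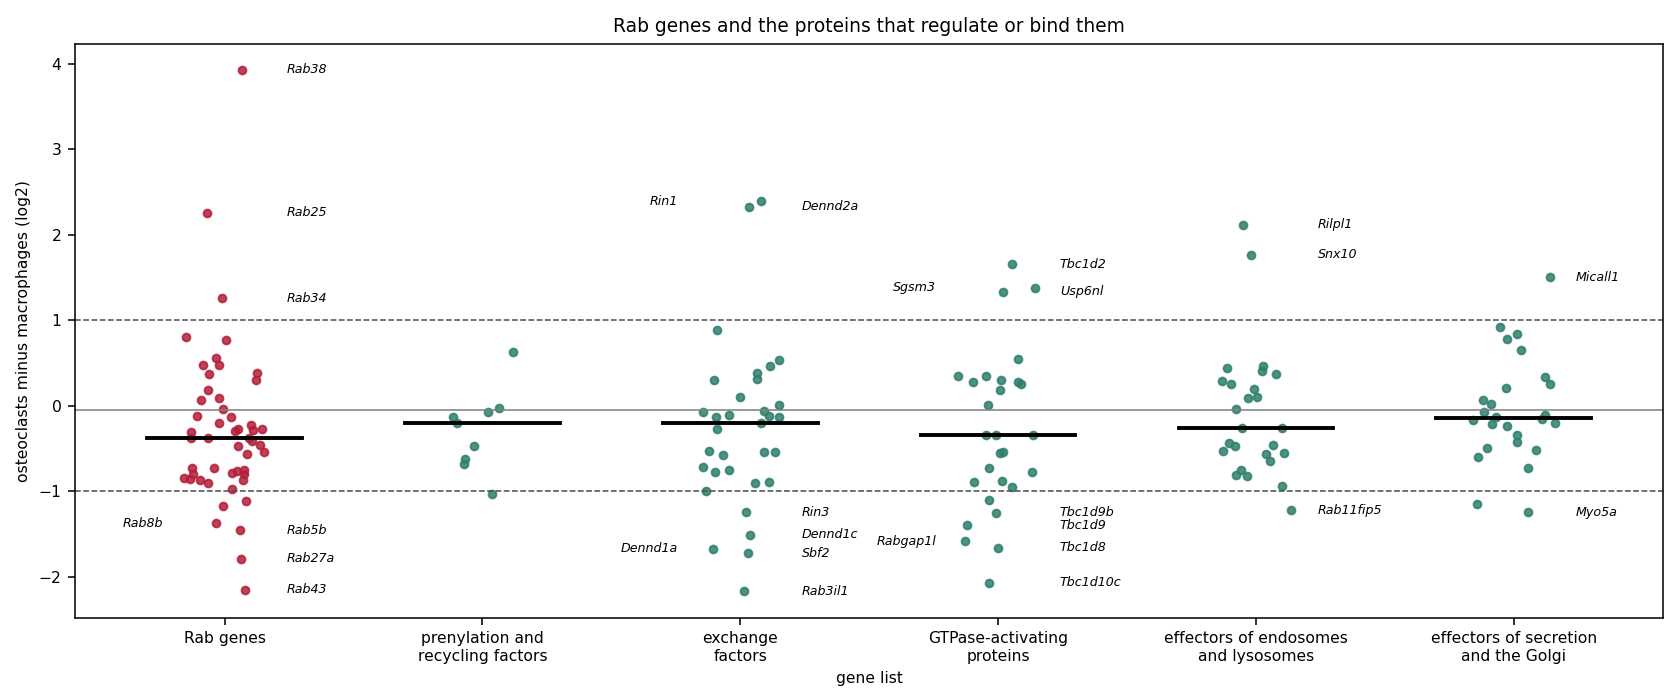
Difference (log2) of each detected Rab gene and of each detected member of the 5 lists of regulators and effectors, with the list median as a black bar, the median of all genes as a grey line and 2-fold as dashed lines. All 6 bars lie below the grey line, between -0.38 and -0.14, and turn above 0 without normalization; genes over 1.2 log2 units apart are named.

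**Figure D5:**
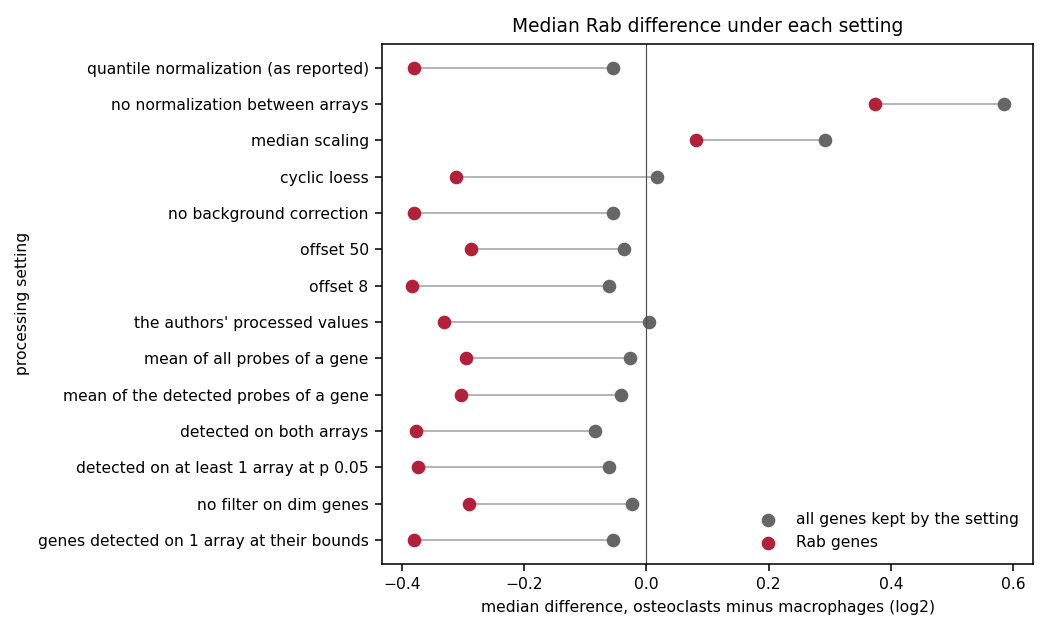
Median difference (log2) of the Rab genes (red) and of all genes kept (grey) under the reported setting and 13 alternatives. The red point lies left of the grey one in each, by 0.21 to 0.33, while both move above 0 without normalization and under median scaling.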

How the data were processed

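RNA of 1 macrophage and 1 osteoclast sample was labelled with biotin and hybridised to Illumina arrays, per the labels' protocols. The deposited non-normalized table gives an intensity per probe with a background subtracted, since values below 0 made up 38.4% and 36.9% of the arrays. The authors' processed table is on a log2 scale with medians of 5.00 for macrophages and 5.05 for osteoclasts. Across 5844 bright probes (both intensities above 200) its differences tracked those of the intensities on that scale (slope 0.970, r = 0.999; probes are no replicates), which sets scale and direction. Its centring stays unknown, and scanner software and normalization are not given in the sources read.

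Background was estimated from the mode of each array (-3.86, SD 3.55 below it, for macrophages; -5.33, SD 5.41, for osteoclasts), as the tables used hold no control probes or detection p-values. It entered limma's normexp, 16 was added, and log2 values were quantile normalized (limma 3.58.1, R 4.3.3; Python 3.11.15, pandas 2.3.3, numpy 2.4.6, matplotlib 3.10.9). Detection used a one-sided p of 0.01 under a normal background. The added 16 understates differences of dim genes. For a gene detected on 1 array the fold is a lower limit, written "at least N-fold": the detected value is set against the lowest detected signal of the other array, or against the gene's own value there if that is higher. The number of arrays limits the precision. The steps were tested on simulated data.

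Annotation gave 1 gene for 34885 probes, several for 18 and none listed for 10378, and the 59 Rab symbols matched RefSeq GRCm38.p6 by Entrez identifier. Members and lists were chosen with earlier results of these data known. The naming rule took called Rabs, Rabs known from osteoclasts, up to 4 others per role by size of difference, and for each regulator list the 5 most different genes. All other names account for members or were added after their values were seen. Alternatives were the scaling, background, offset, source of values, probe rule, dim-gene filter, bounds and size rule. Marker lists not named above are given in the closing section.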

Additional observations from a re-analysis of the deposited data

How the results depend on the processing

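Without normalization the detected Rabs had 10 higher and 1 lower and a median of 0.37, and all genes 3814 and 376 with a median of 0.58; counts higher and lower were 1 and 0 for prenylation factors, 7 and 2 for exchange factors, 8 and 2 for GTPase-activating proteins (median 0.37), 8 and 0 for endosome and lysosome effectors (0.59) and 7 and 0 for secretion effectors (0.60). Median scaling gave 6 and 3 for Rabs, 2517 and 586 for all genes, 1 and 0 for prenylation factors and 4 and 0 for secretion effectors, with 3 lower exchange factors, 3 lower GTPase-activating proteins and 0 lower endosome effectors. An offset of 8 gave 10 lower Rabs and 2 higher secretion effectors; without background correction, where the shift is close to the offset, these effectors also numbered 2 higher. Cyclic loess, an offset of 50, the authors' values and the mean over all probes each left 0 lower prenylation factors, and an offset of 50 left 1 lower secretion effector. The mean over all probes gave 3 lower exchange factors, 1 higher and 2 lower GTPase-activating proteins, 1 higher and 0 lower endosome effectors and 1 lower secretion effector; over detected probes these were 3 lower GTPase-activating proteins, 1 higher endosome effector and 1 lower secretion effector. With genes detected on both arrays alone, 1 exchange factor was higher. At 1.5-fold 5 Rabs were higher and 19 lower, against 2718 and 2663 of all genes. At 4-fold Rab38 and Rab25 were higher and 1 Rab, Rab43, was lower, against 481 and 282 of all genes. Fewer genes or a looser or stricter size rule account for such counts by construction; for the scalings the cause was not tested. Of the 9 called Rabs none (0) changed sign in any alternative. Rab38 and Rab43 kept 2-fold in all 13 and Rab25 in the 12 that keep it, Rab27a and Rab8b in 12, Rab34 and Rab5b in 11, Rab6b in 9 and Rab9 in 8. No paired analysis was possible because each group has 1 sample, and none could be left out. Dim Rabs near the detection limits have differences compressed by the offset.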

Other observations

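Other families of vesicle traffic, chosen after the data were examined, were set beside the Rabs. Of 35 detected SNARE genes, which encode the proteins that fuse vesicles with their targets, 1 was at least 2-fold higher in osteoclasts and 2 were lower, 8.57% called against 19.6% of all genes. The median of these 35 was -0.25 (0.55 without normalization). Stx3, a syntaxin of the plasma membrane, had intensities of 68.4 and 475 and was 3.07-fold higher, with 1.75 at its other probe detected on both arrays and 1.09 at a probe detected on 1 array. Snap29, which acts in the fusion of autophagosomes with lysosomes, was 2.24-fold lower, and Stx2 2.05-fold lower, with -0.43 at a probe detected on 1 array; without normalization the chosen probes of Snap29 and Stx2 stood at -0.33 and -0.20. Of 10 detected Arf and Arl genes, which encode other small GTPases, none (0) reached 2-fold, against the same 19.6%. Their median was -0.35 (0.48 without normalization), from Arl11 at -0.67 to Arf6 at 0.33. Arf1, Arl8a and Arl8b were not among the 12 measured. Of 7 Rab-like genes the largest difference was that of Cracr2a, a calcium-binding large GTPase, detected in macrophages only and at least 1.6-fold lower.

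Among the other marker lists, with genes detected on 1 array at their bounds, 3 of 5 detected fibroblast genes, 6 of 6 skeletal muscle genes and 2 of 4 adipocyte genes were at least 2-fold higher in osteoclasts. Of dendritic cell markers 1 of 6 detected was at least 2-fold lower, of B cell markers 1 of 2, and of mast cell and basophil markers 0 of 3. Over all detected genes, with the same bounds, 10.5% were at least 2-fold higher in osteoclasts and 7.7% lower.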
